A study of Mus musculus with 10 samples.

Results

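The Hoxb genes are the homeobox genes of the Hox cluster on mouse chromosome 11, and their levels were followed along the cluster in 5 independent preparations of bone marrow mesenchymal stromal cells. Of the 10 genes listed (Hoxb1 to Hoxb9 and Hoxb13), 9 had a probe set annotated to that symbol alone, among 19938 genes with such a probe set on the array. Hoxb8 appeared on 1 probe set only, which it shared with Hoxb7, so no value is given for it. Each of the 9 genes had 1 probe set of its own. The preparations, called MSC II, MSC V, MSC I, MSC III and MSC IV here as in the labels, all came from bone marrow of female C57BL/6J mice aged 6 to 8 weeks, with no transgene or treatment named. All were at passage 16 to 17 and were grown in the same MesenCult medium for mouse cells with 20% supplement and the antibiotics penicillin, streptomycin and kanamycin. No preparation was a control, and the sources used here do not say whether animals were pooled or which bones were flushed. Each preparation was measured on 2 arrays, 10 in all. Whether the paired arrays of a preparation came from separate cultures is not stated, so each p-value rests on a spread between arrays that may be technical only.

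Hox proteins are transcription factors that give cells along the head-to-tail axis their regional identity. Within a cluster the genes are switched on in the order in which they lie on the chromosome: those at the Hoxb1 end act earliest and farthest towards the head, those at the Hoxb13 end latest and farthest towards the tail. The pattern is set by signals such as retinoic acid, held by Polycomb and Trithorax chromatin proteins, and kept in many adult connective tissue cells as a record of where in the body they arose. In the GRCm38.p6 annotation, with genes placed by their end coordinates, the cluster ran Hoxb13, Hoxb9, Hoxb8, Hoxb7, Hoxb6, Hoxb5, Hoxb4, Hoxb3, Hoxb2 and Hoxb1, with the microRNA genes Mir196a-1 and Mir10a between them.

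Values are on the log2 scale of the deposited table. Array medians were 6.45 to 6.63, and the median SD between the 2 arrays of a preparation was 0.18. The 10971 genes with 2 or more arrays above 6.55, the table's median, were tested. To be called, a gene needed a difference of 1 log2 or more, that is, a fold of 2, and an adjusted p under 0.05. Of 11 stromal markers with a probe set, 7 lay above 6.55 on all 10 arrays, while Thy1, Nt5e and Eng, surface proteins often used to define these cells, fell below it in several preparations. The endothelial markers lay below that level on all arrays (5 of 5), as did 4 of 6 leukocyte markers, the pan-leukocyte antigen Ptprc among them. The remaining leukocyte markers passed it on some arrays only, with values up to 11.62. Of 5 smooth muscle markers, 3 lay above 6.55 on all arrays, with values up to 13.72, and 2 on none.

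In MSC II the 7 inner genes of the cluster, from Hoxb9 to Hoxb2, were higher than in the other preparations, by 1.26 log2 (Hoxb7) to 3.50 log2 (Hoxb9). MSC V held the second highest mean of each of the 7. MSC I, MSC III and MSC IV lay lower and close together, except that Hoxb9 was higher in MSC IV than in MSC I. Outside Hoxb9, their values for these genes were all below 6.55, the low-value level. The outermost genes, Hoxb13 and Hoxb1, were low on every array. In bulk RNA, a larger share of cells that express a gene and more RNA per expressing cell cannot be told apart.

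**Figure D1:**
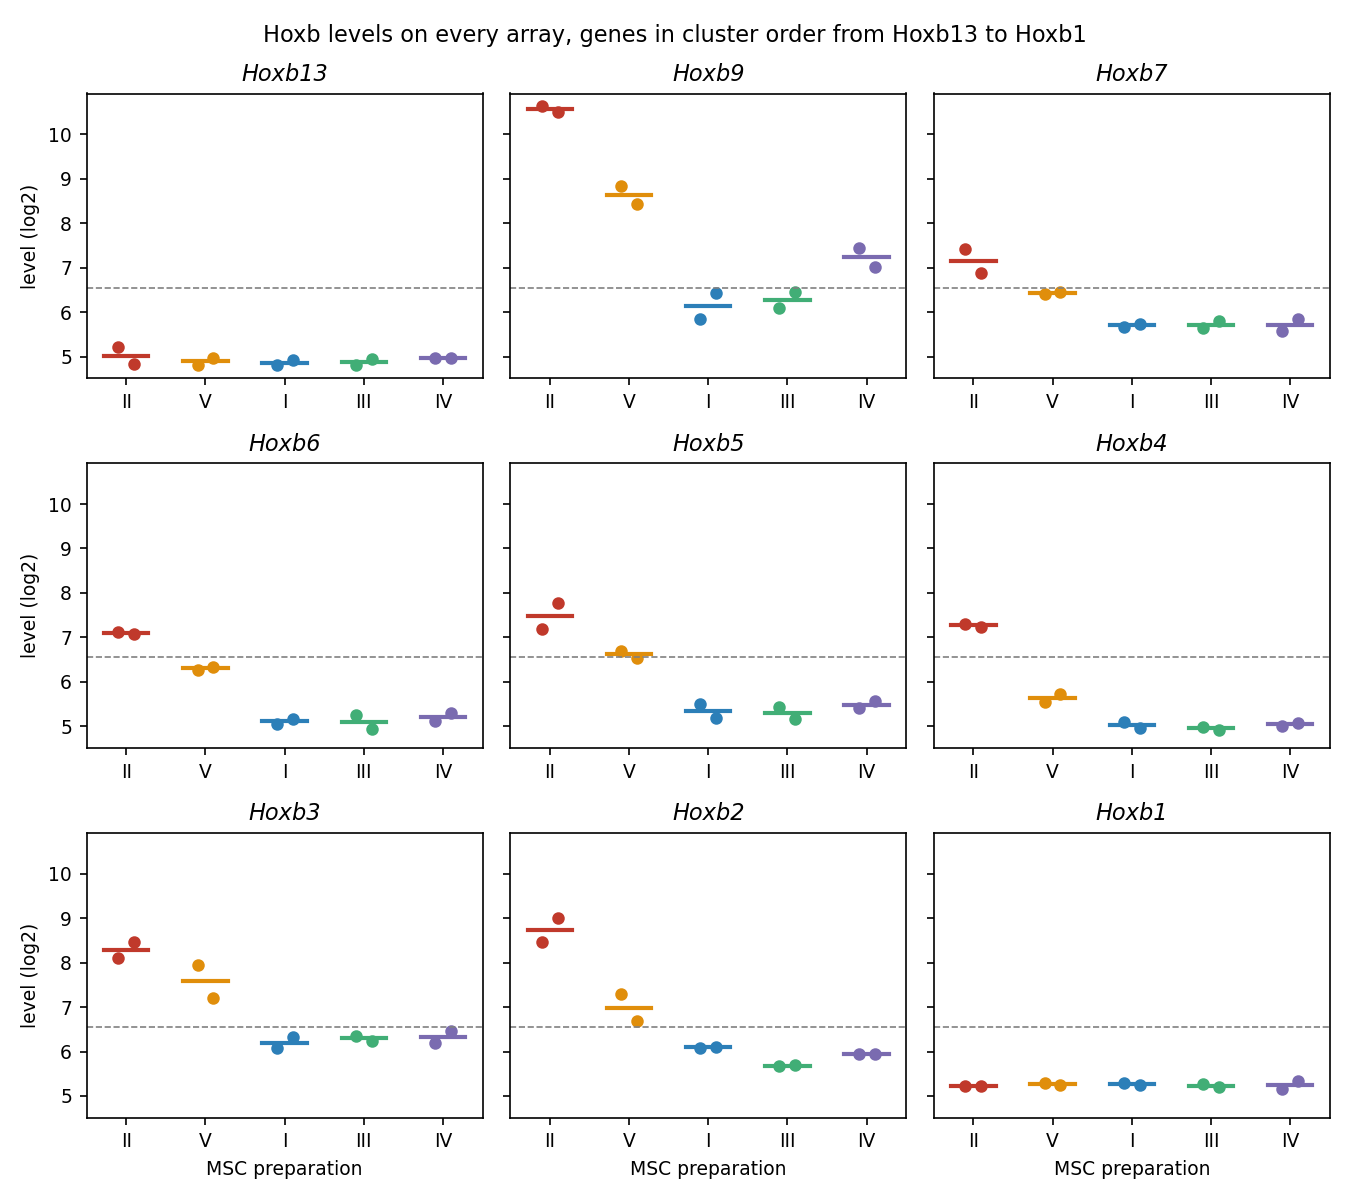
Log2 level (vertical axis) of the 9 Hoxb genes with a probe set on each of the 10 arrays, by preparation (horizontal axis), in cluster order. Points are arrays, bars are means of 2 arrays, and the dashed line is the low-value level of 6.55. Both MSC II arrays lie above all others for Hoxb9, Hoxb7, Hoxb6, Hoxb5, Hoxb4, Hoxb3 and Hoxb2, and Hoxb13 and Hoxb1 stay below the line throughout.

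At the tail end of the cluster, Hoxb13, which acts in the tail tip and the prostate, measured 5.21 and 4.83 in MSC II, against 4.82 and 4.96 in MSC V, 4.80 and 4.91 in MSC I, 4.82 and 4.94 in MSC III, and 4.96 and 4.96 in MSC IV. One MSC II array was the highest of the 10 and the other lay within the range of the rest, so the groups overlapped. Hoxb13 did not pass the low-value filter. In a fit of all 19938 genes its MSC II mean differed from that of the other four by 0.12 ± 0.10 (SE), with an adjusted p of 0.546.

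Hoxb9, whose protein patterns the thoracic ribs and sternum together with Hoxa9, Hoxc9 and Hoxd9, showed the widest spread of the family. It measured 10.63 and 10.51 in MSC II, against 8.84 and 8.44 in MSC V, 5.83 and 6.42 in MSC I, 6.09 and 6.46 in MSC III, and 7.45 and 7.01 in MSC IV. The arrays of MSC II, MSC V and MSC IV formed 3 separate steps, and those of MSC I and MSC III lay together below them. MSC II exceeded the mean of the other four by 3.50 ± 0.20 (11.3-fold, limma adjusted p = 0.000124). MSC II also exceeded MSC V by 1.93 ± 0.25 (adjusted p = 0.00476), and MSC V exceeded MSC IV, the next in order, by 1.41 ± 0.25 (adjusted p = 0.00896). MSC IV differed from MSC III by 0.96 ± 0.25 (adjusted p = 0.043), short of the minimum of 1 log2, and MSC I from MSC III by -0.15 ± 0.25 (adjusted p = 0.699).

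Hoxb7, a homeobox factor of the trunk region, had the smallest difference of the 7. It measured 7.42 and 6.88 in MSC II, against 6.40 and 6.45 in MSC V, 5.66 and 5.74 in MSC I, 5.63 and 5.79 in MSC III, and 5.58 and 5.84 in MSC IV. The MSC II arrays were the only ones above 6.55, and the MSC V arrays lay between them and the rest with no overlap. The difference of MSC II from the other four was 1.26 ± 0.15 (2.40-fold, adjusted p = 0.00209). MSC II minus MSC V was 0.73 ± 0.19 (adjusted p = 0.0414), under the minimum of 1 log2.

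Hoxb6 and Hoxb5, whose proteins act in the lower neck and upper trunk, followed nearly the same course. Hoxb6 measured 7.11 and 7.09 in MSC II, against 6.27 and 6.34 in MSC V, 5.06 and 5.16 in MSC I, 5.25 and 4.95 in MSC III, and 5.13 and 5.29 in MSC IV. Hoxb5 measured 7.19 and 7.78 in MSC II, against 6.69 and 6.54 in MSC V, 5.50 and 5.18 in MSC I, 5.44 and 5.16 in MSC III, and 5.41 and 5.56 in MSC IV. For both genes the arrays fell into 3 levels, with MSC II on top, MSC V below it and MSC I, MSC III and MSC IV together. MSC II exceeded the other four by 1.67 ± 0.11 for Hoxb6 (3.18-fold, adjusted p = 0.000173) and by 1.80 ± 0.17 for Hoxb5 (3.49-fold, adjusted p = 0.000897). MSC II minus MSC V was 0.80 ± 0.13 for Hoxb6 and 0.87 ± 0.22 for Hoxb5, both under the minimum for a call (adjusted p = 0.0109 and 0.0369). The Hoxb5 difference reached 1.17 (adjusted p = 0.0304) without MSC II replicate 1.

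Hoxb4, known as a factor that expands blood stem cells when supplied to them in excess, separated MSC II from MSC V with little spread between arrays. It measured 7.30 and 7.24 in MSC II, against 5.55 and 5.72 in MSC V, 5.08 and 4.96 in MSC I, 4.98 and 4.93 in MSC III, and 5.00 and 5.08 in MSC IV. Only the MSC II arrays passed 6.55, and those of MSC V lay just above MSC I, MSC III and MSC IV. The difference of MSC II from the other four was 2.11 ± 0.0914 (4.33-fold, adjusted p = 4.08e-05). MSC II minus MSC V was 1.64 ± 0.12 (adjusted p = 0.000314), while MSC V minus MSC IV was 0.59 ± 0.12 (adjusted p = 0.0123) and was not called.

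Hoxb3 and Hoxb2, which pattern the hindbrain segments and the cranial nerves that arise there, lie next towards the head end. Hoxb3 measured 8.11 and 8.47 in MSC II, against 7.95 and 7.20 in MSC V, 6.07 and 6.32 in MSC I, 6.36 and 6.23 in MSC III, and 6.20 and 6.45 in MSC IV. Hoxb2 measured 8.45 and 9.01 in MSC II, against 7.29 and 6.68 in MSC V, 6.09 and 6.11 in MSC I, 5.67 and 5.70 in MSC III, and 5.95 and 5.95 in MSC IV. The MSC II arrays were highest for both genes, and the lower MSC V array still lay above every array of MSC I, MSC III and MSC IV. MSC II exceeded the other four by 1.69 ± 0.20 for Hoxb3 (3.23-fold, adjusted p = 0.00209) and by 2.55 ± 0.18 for Hoxb2 (5.86-fold, adjusted p = 0.000257). Against MSC V alone the difference was 0.71 ± 0.25 for Hoxb3 (adjusted p = 0.0982) and 1.74 ± 0.23 for Hoxb2 (adjusted p = 0.00486). The MSC V arrays lay farther apart for Hoxb3 than those of any other preparation, and without MSC V replicate 1 its MSC II minus MSC V difference was 1.09 (adjusted p = 0.0417).

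Hoxb1, which specifies the fourth hindbrain segment, closes the cluster. It measured 5.23 and 5.23 in MSC II, against 5.30 and 5.24 in MSC V, 5.30 and 5.24 in MSC I, 5.26 and 5.21 in MSC III, and 5.16 and 5.33 in MSC IV. The 10 arrays spanned 0.17 log2, all below the filter, and the preparations overlapped. In the fit of all genes the MSC II difference was -0.0237 ± 0.0582 (adjusted p = 0.856). Low array values compress differences and carry no detection call, so a low level does not show that the transcript was absent.

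The called Hoxb4 and the flat Hoxb1 both had an entry in the promoter table, as did Hoxb8. The 250 bases before the annotated start of each are given on the plus strand of GRCm38.p6 from RefSeq, to set the sequence of a gene that differed beside that of one that did not. Capitals mark matches to the letters searched on both strands: the retinoic acid receptor motif AGGTCA, its direct repeat with a gap of 5 bases, the Pbx-Hox motif TGATNNAT, the CCAAT box CCAAT and the TATA box TATAAA.
Hoxb4 promoter, chr11:96318017-96318266: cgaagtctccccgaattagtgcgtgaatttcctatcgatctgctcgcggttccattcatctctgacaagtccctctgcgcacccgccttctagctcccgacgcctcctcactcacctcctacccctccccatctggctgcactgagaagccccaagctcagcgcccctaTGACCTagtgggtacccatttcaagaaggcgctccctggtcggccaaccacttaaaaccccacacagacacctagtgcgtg
Hoxb1 promoter, chr11:96365508-96365757: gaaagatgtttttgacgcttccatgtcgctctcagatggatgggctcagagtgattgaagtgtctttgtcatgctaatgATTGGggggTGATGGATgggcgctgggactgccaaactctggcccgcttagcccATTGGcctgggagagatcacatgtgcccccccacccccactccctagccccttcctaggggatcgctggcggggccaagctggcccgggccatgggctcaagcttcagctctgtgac
The Hoxb4 stretch held 14 CpG dinucleotides, more than 70.6% of 32851 promoter windows of the same length, at a GC content of 58.0%. The Hoxb1 stretch held 7, more than 53.7% of the windows, at 59.2% GC, and the median window held 6. The Hoxb4 stretch had 1 AGGTCA, on the minus strand, as 14.0% of windows did. The Hoxb1 stretch had 1 TGATNNAT, as 7.68% of windows did, and 2 matches to CCAAT on the minus strand, found in 33.8% of windows. Neither stretch held TATAAA (12.4% of windows) or the direct repeat (0.00913%). These are matches of letters and not binding sites.

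Across the family, all 7 tested genes differed among the preparations in limma's moderated F test, against 29.1% of all 10971 genes tested, with adjusted p from 2.88e-05 (Hoxb4) to 0.0023 (Hoxb7). In MSC II, 7 of 7 tested genes were called higher than in the other four, against 2.45% of all genes. Hoxb7, Hoxb6 and Hoxb4 passed the low-value filter only through the MSC II arrays, and Hoxb5, with 1 array above 6.55 outside MSC II, would not have passed without them either. So 4 of the 7 were tested because they were high in MSC II, and 3 (Hoxb9, Hoxb3 and Hoxb2) passed without its arrays. With no filter, 7 of the 9 genes with a value were called higher, against 1.28% of 19938 genes. Leaving out MSC II replicate 1 or replicate 2 left 4 genes above the filter, all 4 called, and without the filter 6 calls (replicate 1 left out, Hoxb7 at 0.99) or 7 (replicate 2 left out). With each preparation taken as a single value, so that the spread came from the others and not from replicate arrays, 0 of 7 were called after adjustment by limma, although all 7 had an unadjusted p under 0.05, as 3.01% of all genes did. The median difference in MSC II was 1.80 over the 7 tested genes and 0.00935 over all genes tested. Both MSC II arrays lay above the 8 others for all 7 inner genes, as they did for 8.60% of tested genes and 6.04% of all genes.

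The largest MSC II differences were those of Hoxb9 and Hoxb2, which bound the inner stretch at its 2 ends. The smallest was that of Hoxb7, next to the unmeasured Hoxb8. Sizes of differences between genes also depend on how each probe set responds and were not tested against each other. Of the Hoxb genes beyond them, neither Hoxb13 nor Hoxb1 was called by limma in any comparison made without the filter, nor had an unadjusted p under 0.05.

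**Figure D2:**
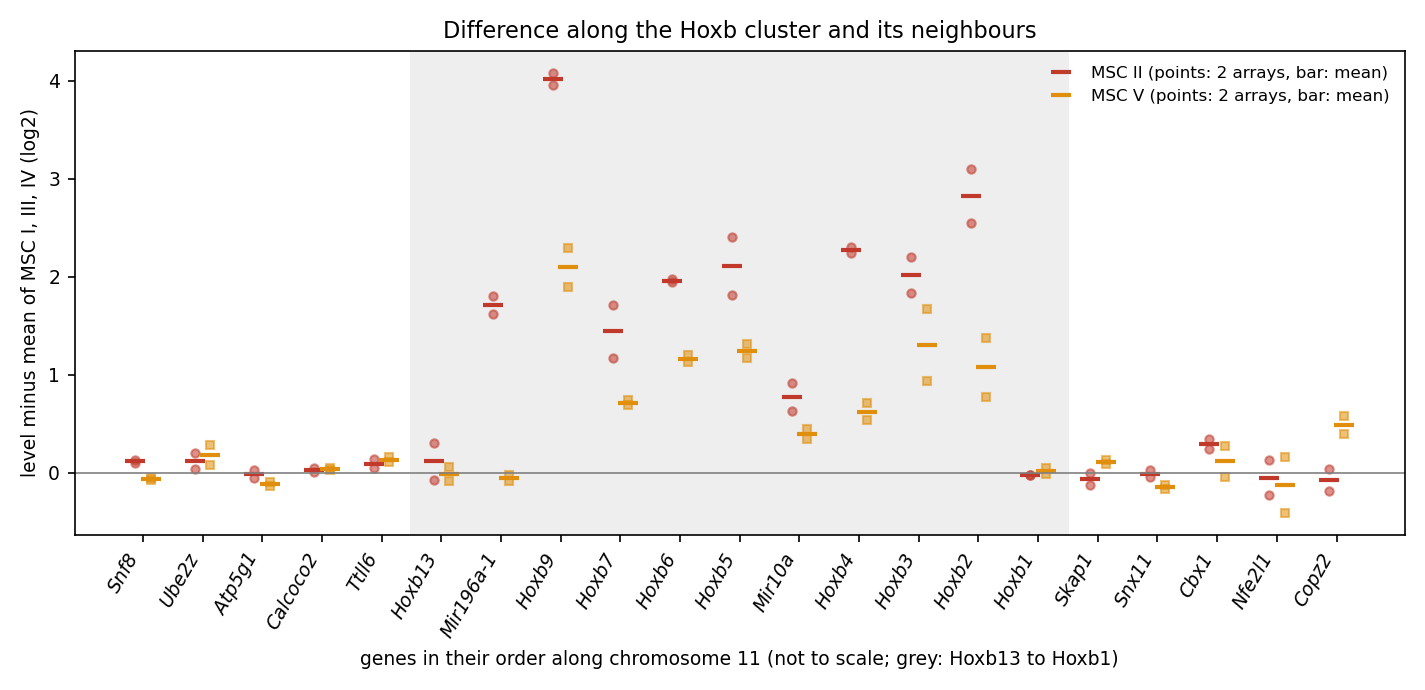
Level of MSC II and MSC V minus the mean of MSC I, MSC III and MSC IV (log2, vertical axis) for genes in their order along chromosome 11 (horizontal axis, not to scale). Points are the 2 arrays of a preparation, bars are their means, and grey marks Hoxb13 to Hoxb1. The MSC II points stand above 1 from Mir196a-1 to Hoxb2 except at Mir10a, and near 0 at Hoxb13, Hoxb1 and the neighbours outside.

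The genes that flank the cluster did not share the pattern. Of the 5 protein-coding neighbours on either side, 10 in all, 7 passed the filter, and none of the 7 was called among the preparations (limma F test adjusted p 0.177 to 0.574, 0 with an unadjusted p under 0.05). The nearest to a MSC II difference was Cbx1, a heterochromatin protein, at 0.26 ± 0.12 (adjusted p = 0.174). Copz2, a subunit of the coat of Golgi vesicles, was 0.49 ± 0.17 higher in MSC V than in the mean of MSC I, MSC III and MSC IV (adjusted p = 0.109). The neighbours directly outside, Ttll6 beyond Hoxb13 and Skap1 beyond Hoxb1, were at 5.44 or lower on all arrays and were not tested.

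The cluster also encodes the microRNAs miR-196a and miR-10a. Their mature sequences from RefSeq (GRCm38.p6, seed of bases 2 to 8 in capitals) are shown with those of the near copies that other Hox clusters encode, because members with a shared seed pair with largely the same targets. miR-196a silences Hox messages, Hoxb8 being its best known target.
mmu-miR-196a-5p of Mir196a-1, chr11:96265187-96265208, plus strand: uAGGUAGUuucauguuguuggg
mmu-miR-10a-5p of Mir10a, chr11:96317186-96317208, plus strand: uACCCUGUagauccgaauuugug
mmu-miR-196b-5p of Mir196b in the Hoxa cluster, chr6:52230129-52230150, minus strand: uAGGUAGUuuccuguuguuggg
mmu-miR-10b-5p of Mir10b in the Hoxd cluster, chr2:74726074-74726096, plus strand: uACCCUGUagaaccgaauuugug
The miR-196 forms share the seed AGGUAGU, and the miR-10 forms share ACCCUGU. The probe sets for the host genes measured RNA of the locus in a total RNA preparation and cannot tell the mature form from its precursor. Mir196a-1, between Hoxb13 and Hoxb9, measured 6.95 and 6.77 in MSC II, against 5.06 and 5.12 in MSC V, 5.17 and 5.12 in MSC I, 5.12 and 5.09 in MSC III, and 5.09 and 5.28 in MSC IV. The MSC II arrays stood alone and the MSC V arrays lay among the rest, unlike those of the neighbouring Hoxb9. The MSC II difference from the other four was 1.73 ± 0.0955 (adjusted p = 0.000124), and MSC V differed from the mean of MSC I, MSC III and MSC IV by -0.0547 ± 0.0987 (adjusted p = 0.751). The filter was passed here through MSC II alone, so that the gene was not tested when either of its arrays was left out.

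Mir10a, between Hoxb5 and Hoxb4, measured 6.11 and 6.39 in MSC II, against 5.82 and 5.92 in MSC V, 5.29 and 5.28 in MSC I, 5.72 and 5.37 in MSC III, and 5.61 and 5.58 in MSC IV. The order of MSC II and MSC V was that of the Hoxb genes, but all arrays lay below the filter. Mir10a was therefore not among the genes tested in the main fit, and no p-value is given for it. Mir196a-2 in the Hoxc cluster, which encodes the same mature miR-196a-5p, was 1.04 log2 higher in MSC II than in the other four (adjusted p = 0.00376) and 1.29 lower in MSC V (a difference of -1.29, adjusted p = 0.0025). By pair, MSC II was called higher than MSC V (1.87) and MSC IV (1.19). It was not called against MSC I (0.80, limma adjusted p = 0.0125) or MSC III (0.31, adjusted p = 0.329), so MSC II did not stand alone here.

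MSC V took second place throughout the inner cluster. MSC II had the highest and MSC V the second highest mean, with the F test called, for 7 of 7 tested members and for 1.23% of all genes tested. Hoxb7, Hoxb6, Hoxb5 and Hoxb4 were among the tested genes only because they were high in MSC II. Both MSC V arrays lay above all 6 arrays of MSC I, MSC III and MSC IV for all 7 inner genes, as they did for 6.41% of tested genes and 5.88% of all genes. Both patterns were read from these same values, so their counts describe the order and are no test of it. Against the other four, MSC II included, 1 of 7 members was called higher in MSC V (2.11% of all genes): Hoxb9, by 1.09 ± 0.20 (adjusted p = 0.0161), a call lost without MSC V replicate 1 (0.89) or replicate 2 (1.29, adjusted p = 0.0513).

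With MSC II left out of the comparison, a choice made after seeing the data, 5 of 7 were called higher in MSC V than in the mean of MSC I, MSC III and MSC IV, against 2.34% of all genes. These were Hoxb9 (2.10 ± 0.21, adjusted p = 0.00114), Hoxb3 (1.30 ± 0.21, adjusted p = 0.00841), Hoxb5 (1.24 ± 0.18, adjusted p = 0.00565), Hoxb6 (1.16 ± 0.11, adjusted p = 0.000985) and Hoxb2 (1.08 ± 0.19, adjusted p = 0.0125). Hoxb7 (0.72 ± 0.15) and Hoxb4 (0.63 ± 0.0944) had adjusted p of 0.026 and 0.00721 and missed the minimum of 1 log2. Without MSC V replicate 1, 2 calls remained, Hoxb9 and Hoxb6. The difference was then 1.17 for Hoxb5 (adjusted p = 0.0599), 0.93 for Hoxb3 (adjusted p = 0.0556) and 0.77 for Hoxb2 (adjusted p = 0.0962).

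The pairs of preparations were compared from the same fitted means, so their calls describe the order again and are no separate test of it. Hoxb7, Hoxb6, Hoxb5 and Hoxb4 entered these comparisons only because they were high in MSC II. Calls higher in MSC II than in MSC I numbered 7 of 7 members (6.77% of all genes). They numbered 7 against MSC III (1.50%), 7 against MSC IV (5.90%) and 3 against MSC V (2.35%), namely Hoxb9, Hoxb4 and Hoxb2. MSC V was called higher than MSC I for 4 members (4.43% of all genes), MSC III for 5 (1.04%) and MSC IV for 5 (7.46%). Hoxb9, Hoxb6, Hoxb5 and Hoxb3 were called in all 3 of these pairs, and Hoxb2 against MSC III and MSC IV. Most members without a call missed only the minimum of 1 log2. At any size, limma adjusted p was under 0.05 for 6 members in MSC II minus MSC V (all but Hoxb3). In MSC V it was so for 7 against MSC I, 6 against MSC III (all but Hoxb7) and 7 against MSC IV. The matching shares over all genes are not given.

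The MSC V counts rested on single arrays more than those of MSC II did. The 5 calls against MSC III became 2 without MSC III replicate 1, MSC III replicate 2 or MSC V replicate 1, and 3 without MSC IV replicate 1 or replicate 2. The 5 against MSC IV became 2 without MSC IV replicate 1 and 1, Hoxb6, without MSC IV replicate 2 or MSC V replicate 1. These pairs share preparations and are not independent of each other.

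**Figure D3:**
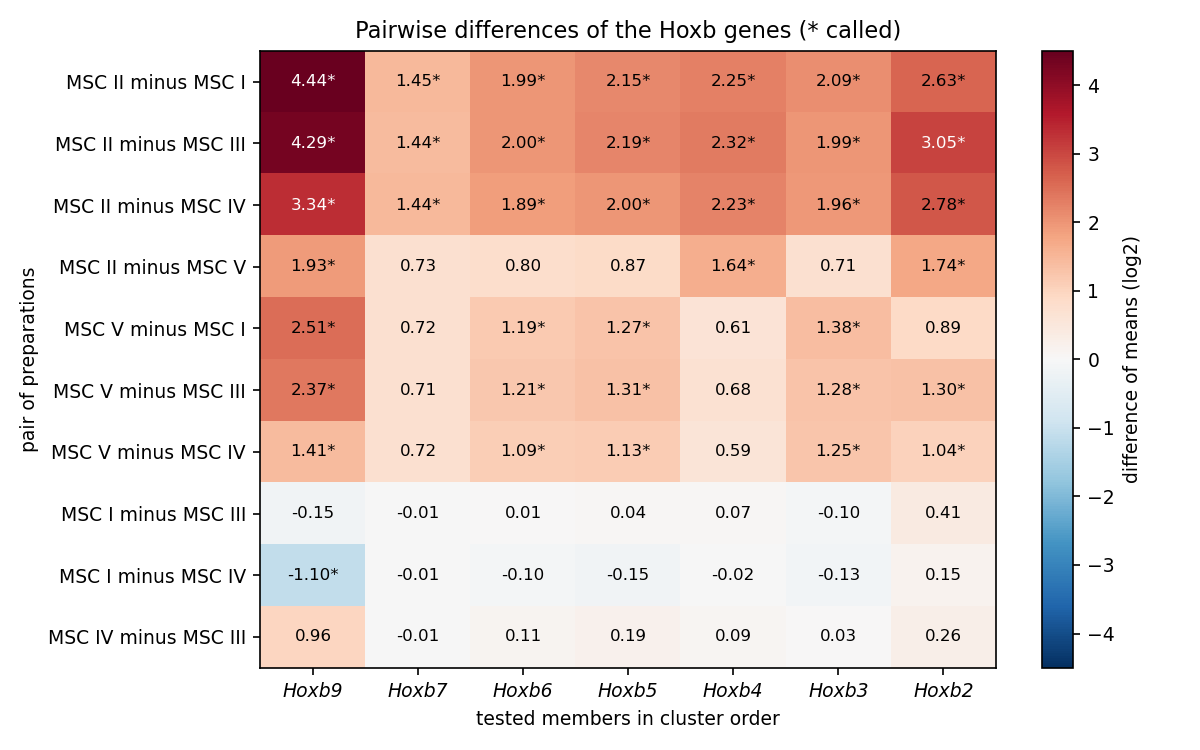
Differences of preparation means (log2, colour and printed value) for the 7 tested Hoxb genes in cluster order (horizontal axis) and the 10 pairs of preparations (vertical axis). An asterisk marks a call at adjusted p under 0.05 and at least 1 log2. The upper 7 pairs, with MSC II or MSC V first, are positive throughout, and of the lower 3 only the Hoxb9 difference of MSC I from MSC IV carries a mark.

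MSC I, MSC III and MSC IV differed little from each other outside Hoxb9. MSC I minus MSC III gave 0 calls among the 7 members (11.3% of all genes were called either way), with 0 of 7 at an unadjusted p under 0.05 (40.4% of all genes). MSC IV minus MSC III also gave 0 calls (7.99% of all genes), with 1 member, Hoxb9, under an unadjusted p of 0.05 (32.3% of all genes). In MSC I minus MSC IV, 1 member was lower (8.04% of all genes), Hoxb9 at -1.10 ± 0.25 (adjusted p = 0.0103), a call lost without MSC I replicate 1 or MSC IV replicate 1. Outside Hoxb9, the differences among these preparations ran from -0.15 to 0.41. For those genes every array of MSC I, MSC III and MSC IV lay below 6.55 (highest 6.45, Hoxb3), where differences are compressed. The shares over all genes include genes at higher levels, so the low counts do not show that these preparations were alike.

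Set against the other four, which include MSC II, 1 of 7 members was called lower in MSC I (5.22% of all genes), Hoxb9 at -2.05 ± 0.20 (adjusted p = 0.000249). The remaining members, at -0.93 to -0.55, had limma adjusted p of 0.000967 to 0.0214 and missed only the minimum of 1 log2. In MSC III, 2 were called lower (0.957% of all genes), Hoxb9 at -1.87 ± 0.20 (adjusted p = 0.00323) and Hoxb2 at -1.26 ± 0.18 (adjusted p = 0.00993). Hoxb4, Hoxb5 and Hoxb6 missed only the minimum there, and Hoxb3 and Hoxb7 also had an adjusted p above 0.05. Leaving out MSC III replicate 1 left 0 calls in MSC III and leaving out its replicate 2 left 1. The count in MSC I was 2 without MSC I replicate 1, MSC I replicate 2 or MSC V replicate 2. In MSC IV none of the 7 was called by limma (11.0% of all genes either way), because all differences, -0.93 to -0.54, missed the minimum of 1 log2. Their adjusted p ran from 0.00172 (Hoxb4) to 0.0375 (Hoxb9). All 7 had an unadjusted p under 0.05, as 45.2% of all genes did. With MSC V replicate 2 left out, 1 was called.

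Likeness of course was measured as the mean absolute difference over the 10 arrays between 2 genes, each centred on its own mean, among 10970 other tested genes. Hoxb5 and Hoxb6 were each other's nearest gene (0.141 log2), and Hoxb6 was also the nearest gene to Hoxb3 (0.166). Hoxb4 was the nearest gene to Hoxb2 (0.277). The nearest other member ranked second for Hoxb4 (Hoxb6, 0.226) and for Hoxb9 (Hoxb2, 0.618), and ninth for Hoxb7 (Hoxb6, 0.232).

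Outside the family, Slc39a8, a zinc and manganese transporter, recurred most often. It was among the 3 nearest outside genes for 6 of the 7 members, all but Hoxb9, and was the nearest gene of all to Hoxb7 (0.157) and Hoxb4 (0.224). Dusp14, a dual-specificity phosphatase, Gem, a small GTP-binding protein, and Ociad2 were each among the 3 nearest for 2 members. The median distance to all tested genes was 0.57 for Hoxb7 and 1.48 for Hoxb9, so small distances come more easily to members with small differences. These distances describe the same 10 arrays and carry no test.

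The other Hox clusters, on other chromosomes, varied among the preparations too but along other lines. All 9 tested Hoxc genes and 8 of 10 Hoxa genes were called in the F test, against the 29.1% of all genes. In MSC II, 4 of 9 Hoxc genes were called higher (Hoxc5, Hoxc6, Hoxc8 and Hoxc9) and 1 lower, and 1 of 10 Hoxa genes higher and 2 lower. Of all genes, 2.45% were called higher and 2.69% lower. Without MSC II replicate 2, no Hoxc or Hoxa gene was called higher there, and Hoxa13 was no longer called lower. By pair, Hoxc calls higher in MSC II numbered 0 against MSC I, 1 against MSC III, 3 against MSC IV and 6 against MSC V. The shares of all genes were 6.77%, 1.50%, 5.90% and 2.35%. Called lower were 3 against MSC I, 2 against MSC III and 0 against each of the others. In MSC V, where the Hoxb genes came second, 7 of 9 Hoxc genes were called lower (1.44% of all genes) and 0 higher. Of 10 Hoxa genes, 2 were called higher in MSC V (Hoxa11 and Hoxa13, against 2.11% of all genes) and Hoxa9 lower. The F test called 4 to 8 Hoxa genes as single arrays were left out, 4 without MSC I replicate 1 and 5 without MSC I replicate 2 or either MSC V array. Of the Hoxd genes, 1 of 9 with a probe set passed the filter, Hoxd8, and it was called in the F test but not in MSC II or MSC V.

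A few genes show the contrast. Hoxc6, a factor of the upper trunk and forelimb level, averaged 10.26 ± 0.26 in MSC II and 6.44 ± 0.30 in MSC V, with 10.20 ± 0.19 in MSC I, 8.34 ± 0.66 in MSC III and 8.85 ± 0.42 in MSC IV (SD, n = 2 each). Hoxa11, which patterns the forearm, shank and uterus, averaged 5.22 ± 0.17 in MSC II and 9.27 ± 0.0215 in MSC V, with 5.58 ± 0.21 in MSC I, 7.82 ± 0.53 in MSC III and 5.19 ± 0.14 in MSC IV. Hoxa9, of the same group as Hoxb9, averaged 9.55 ± 0.26 in MSC II and 6.64 ± 0.33 in MSC V, with 9.41 ± 0.27 in MSC I, 9.37 ± 0.14 in MSC III and 8.02 ± 0.47 in MSC IV. So MSC V, second for every inner Hoxb gene, had the lowest Hoxc6 and Hoxa9 means and the highest Hoxa11 mean of the 5. The remaining Hoxa genes were mixed. MSC V had the highest mean for Hoxa13 and Hoxa7, and for Hoxa10 it was level with MSC II at the top (9.26 in both). Its Hoxa4 mean was the lowest, by little, and for Hoxa2, Hoxa3, Hoxa5 and Hoxa6 it lay between the others. No test set one cluster against another.

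**Figure D4:**
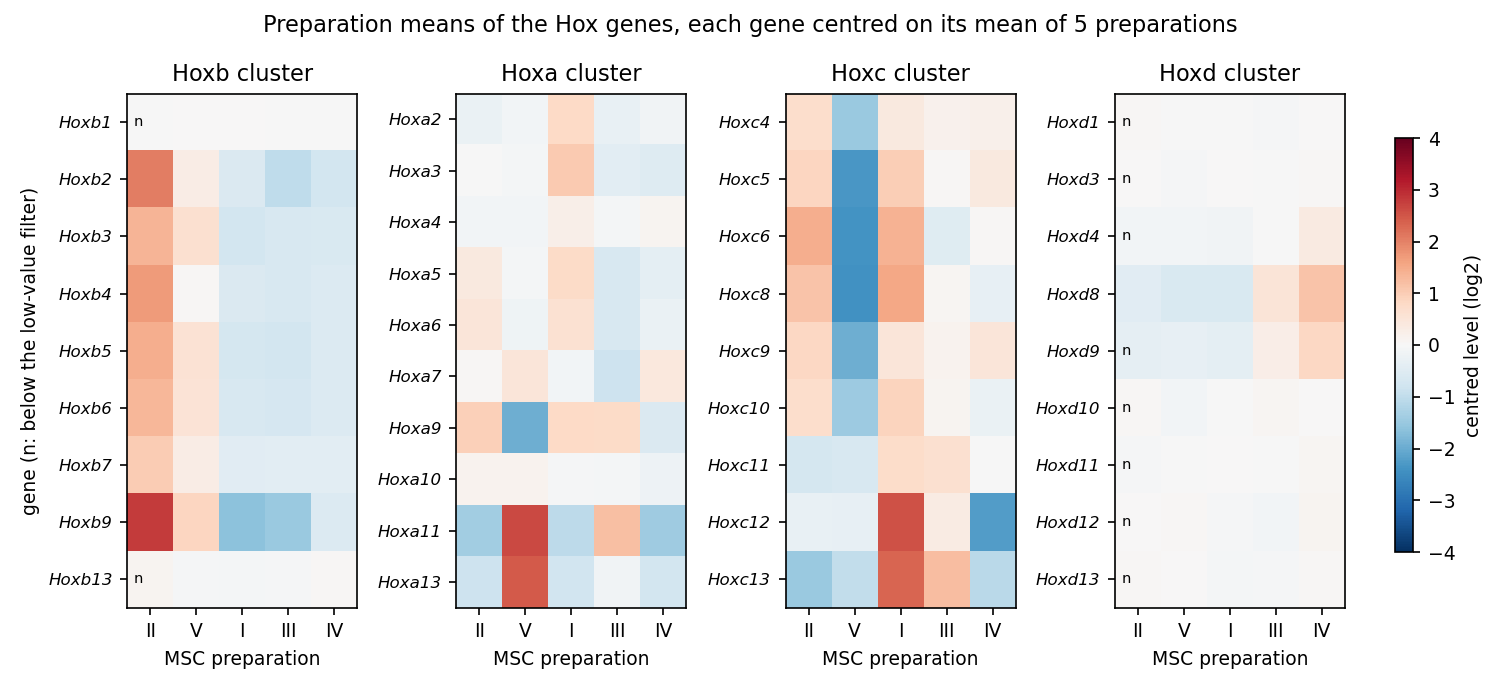
Preparation means of the Hox genes with a probe set (log2, colour), each gene centred on its mean over the 5 preparations, with genes of a cluster down the page and preparations in columns. The letter n marks genes below the low-value filter. Hoxb2 to Hoxb9 are high in MSC II and intermediate in MSC V, whereas Hoxc4 to Hoxc10 are lowest in MSC V.

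The partners and regulators of Hox proteins were followed as lists chosen with earlier results of these data known. Of 8 tested cofactors, the TALE homeodomain proteins of the Pbx, Meis and Pknox families that bind DNA with Hox proteins, 5 were called in the F test (29.1% of all genes). In MSC II, 1 of the 8 was called higher (2.45% of all genes), Meis1 at 9.34 ± 0.40 against 7.74 ± 0.12 in MSC V, 8.12 ± 0.14 in MSC I, 8.24 ± 0.35 in MSC III and 8.47 ± 0.73 in MSC IV (difference 1.20 ± 0.27, adjusted p = 0.0222), a call lost without either of the MSC II arrays. The cofactors called by the F test were 3 without MSC I replicate 1. In MSC V, 1 of the 8 was called lower (1.44% of all genes), Meis2 (difference -2.11, adjusted p = 0.00138), and 0 higher (2.11% of all genes). The cofactors were not tested as a group against the Hoxb order.

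Of 26 tested Polycomb and Trithorax genes, the chromatin proteins that hold Hox genes silent or active, 3 were called in the F test (Phf19, Jarid2 and Kdm6b), against 29.1% of all genes. None was called in MSC II or MSC V by limma. At an unadjusted p under 0.05 there were 7 of 26 in MSC II, where 34.7% of all genes passed, and 5 of 26 in MSC V, where 29.9% did. Of 5 tested upstream regulators of the Hox code, 1 was called in the F test (29.1% of all genes), Egr2, which drives Hoxb2 in the hindbrain. Its levels were 8.61 and 9.24 in MSC II, 9.16 and 8.88 in MSC V, 9.17 and 8.75 in MSC I, 9.41 and 8.32 in MSC III, and 6.29 and 7.45 in MSC IV, and it was low in MSC IV only. Without MSC IV replicate 1 it was not called.

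Retinoic acid, the vitamin A derivative that switches on 3′ Hox genes in the embryo, was represented by 11 tested genes, of which 6 were called in the F test (29.1% of all genes). In MSC II, 2 were called higher (2.45% of all genes), the retinoic acid binding proteins Crabp1 (3.44, adjusted p = 0.00181) and Crabp2 (2.80, adjusted p = 0.000173). The synthesising enzyme Aldh1a2 was the 1 gene called lower in MSC II (-2.56, adjusted p = 0.00909, against 2.69% of all genes), but not without MSC II replicate 1, and the F test called 4 genes without MSC I replicate 2. Crabp1 averaged 12.21 ± 0.12 in MSC II and 10.88 ± 1.05 in MSC V, with 9.06 ± 0.39 in MSC I, 8.48 ± 0.71 in MSC III and 6.67 ± 0.18 in MSC IV. Its 2 top preparations were thus those of the Hoxb genes, and it was also the 1 gene called higher in MSC V (1.77, adjusted p = 0.0293, against 2.11% of all genes), except when replicate 1 of MSC II or of MSC V, or either MSC IV array, was left out. Crabp2 did not share that order: it averaged 10.74 ± 0.15 in MSC II and 8.33 ± 0.41 in MSC V, with 5.86 ± 0.0809 in MSC I, 9.82 ± 0.17 in MSC III and 7.76 ± 0.31 in MSC IV.

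Among markers of other cells, the macrophage and lysosome marker Cd68 averaged 7.41 ± 0.14 in MSC II and 8.54 ± 0.0107 in MSC V, with 6.98 ± 0.0605 in MSC I, 6.73 ± 0.19 in MSC III and 6.60 ± 0.29 in MSC IV. It was thus highest in the 2 preparations with the highest Hoxb levels, but in the opposite order. The log2 values of the 4 macrophage markers added up to 22.81 to 23.06 in MSC II and 24.13 to 25.38 in MSC V. The sums were 22.10 to 22.76 in MSC I, 22.89 to 23.08 in MSC III and 21.99 to 22.65 in MSC IV. Such a sum of log2 values does not measure the amount of macrophage RNA. The other 3 macrophage markers lay below 6.55 on all arrays. Their part in the Hoxb differences was not tested.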

How the data were processed

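The authors deposited 1 table of log2 values for 35399 probe sets and 10 single-colour arrays. Per the submitters' processing notes it was made with RMA and Partek, whose versions the sources used here do not give. RMA normalises by quantiles and compresses differences between low values. Arrays were grouped by sample title, and array number limits the precision.

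Probe sets with 1 symbol in the platform annotation were used (21789, against 1621 with several and 11989 with none), and for a gene with more than 1 the one with the highest mean. Of the 21789, 21698 matched GRCm38.p6 by gene identifier.

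Preparation means were fitted with limma 3.58.1 (lmFit, eBayes) in R 4.3.3, over all 10 arrays with a shared spread, with two-sided tests and the Benjamini-Hochberg adjustment over 10971 genes. Tables were made in Python 3.11.15. The fit was tested on simulated data. The members and lists were chosen with earlier results of these data known. Every Hoxb gene is named, list members are named where called, neighbours reach to the fifth protein-coding gene, and likeness names the 3 nearest outside genes, not all of them given in the text.

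Alternatives were no filter, a stricter filter, the mean of probe sets, arrays centred on their medians, further quantile normalisation, trend and robust settings, a replicate block, preparation means as single values and each array left out. Leaving out MSC II as a reference, and no filter together with an MSC II array left out, were added after seeing the data.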

Additional observations from a re-analysis of the deposited data

How the results depend on the processing

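With the low-value level raised to 9.22, the table's 75th percentile, Hoxb9 alone was tested, which gave 1 call in the F test, 1 in MSC II, 1 in MSC III and 8 over the 10 pairs, where the reported total is 39. Leaving out 1 array at a time gave 4 to 7 calls in the F test, 1 to 2 in MSC I, 4 to 7 in MSC II, 0 to 3 in MSC III, 0 to 1 in MSC IV, 0 to 1 in MSC V and 25 to 39 over the pairs. With one or the other MSC II array left out, 4 members passed the filter and all 4 were higher in MSC II. With no filter, 6 were called without MSC II replicate 1 (Hoxb7 at 0.99) and 7 without replicate 2, and MSC V then had 0 calls without MSC II replicate 2. A lone remaining array was taken to vary as the other preparations did. With preparation means as single values there were 0 calls in MSC I, MSC II, MSC III, MSC IV and MSC V, with unadjusted p under 0.05 for 7 members in MSC II and 0 in each of the others, and adjusted p of 0.788 to 0.999 in MSC II. With MSC II left out of the reference, MSC V had 5 calls, all higher. MSC I and MSC III then had 1 call each, Hoxb9 lower, and MSC IV had 0. The sign turned in 2 small differences: Hoxb4 in MSC V was -0.0272 without MSC V replicate 2 (highest 0.14, without MSC V replicate 1), and Mir196a-1 in MSC V against MSC I, MSC III and MSC IV was 0.0316 with arrays centred. Other causes of these changes were not tested. Equal replicate numbers mostly did not deviate together: their deviations correlated at -0.555 to 0.203 over the 10 pairs of preparations, above 0.1 in 1. Negative values can also come from deviations shared by arrays of unlike number, which this check does not address. With the replicate block, MSC II kept a count of 7 and the pairs gave 36, MSC V minus MSC III falling to 2. Among the single-gene values, 542 of those recomputed kept direction and side of the threshold, 16 lost a call, 4 gained one and 2 reversed.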
